A study of Homo sapiens with 6 samples.

Results

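The snoRNA host genes were the 29 rows of the count table whose symbol was SNHG with a number, GAS5, ZFAS1, DANCR, TMEM107 or EPB41L4A-AS1 and whose mean over the 6 libraries was at least 5 counts. They were chosen by symbol and by mean count, and SNHG9 was chosen for its fall in these same libraries, so its values are given as a description with no test. Of 28491 rows in the table, 30 matched the symbols. SNHG14, at a mean of 0.5 counts, fell outside the minimum, and SNHG22 (10.0), SNHG31 (30) and SNHG25 (55.2) were the lowest inside it. All 29 passed the count filter that left 16260 genes for testing, and 28 of them, all but the protein-coding TMEM107, were lncRNA genes in GENCODE release 44.

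Poly(A) RNA of HCT116, a human colorectal carcinoma cell line, was sequenced as 3 libraries from cells given a control plasmid (NC) and 3 from cells given an RBM47 expression plasmid (RBM47-OE), all transfected by lipofection and collected at 48 h. The series asked how an excess of the RNA-binding protein RBM47 alters gene expression and splicing in these cells. The labels name a pcDNA3.1-3xFlag-RBM47 plasmid, DMEM and a NEBNext directional kit, whereas the methods name pIRES-hrGFP-1a, McCoy's medium and another stranded kit, so which was used is not settled here. In either case RBM47 was driven by the plasmid's own promoter in a single line that had been transfected transiently, and no source says whether the replicates were separate cultures, so that p-values measure only the spread between these libraries, which may be technical. RBM47 stood at 1.91, 2.33 and 1.94 FPKM in NC and at 131, 130 and 127 FPKM in RBM47-OE. The libraries held 26792409 to 35477983 gene counts. EPCAM (75.2 to 104 FPKM), KRT8, KRT18, KRT19 and CDH1 marked epithelium in every library, whereas villin, VIL1, stayed at 0.02 to 0.09 FPKM. PECAM1 was at 0 to 0.03 FPKM and COL1A1 at 1.31 to 1.72 FPKM.

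A snoRNA host gene carries small nucleolar RNAs, mostly in its introns. After splicing the intron is debranched and trimmed down to the snoRNA, which is bound by core proteins as a box C/D particle that guides 2′-O-methylation or a box H/ACA particle that guides pseudouridylation of ribosomal and spliceosomal RNA, while many of the spliced host transcripts code for no protein and are removed by nonsense-mediated decay. Many hosts are transcribed from the same kind of start as ribosomal protein genes, with a C and a run of pyrimidines at the first base of the transcript, known as a 5′ terminal oligopyrimidine motif, and several are studied as lncRNAs in tumours.

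In the annotation 59 snoRNA or scaRNA entries lay inside 28 of the 29 hosts. None was annotated inside GAS5, although it is a known host, so its snoRNAs are missing from the 59. Of these, 54 lay in introns and 5 overlapped exons of the host's canonical transcript, the latter in SNHG11, SNHG15, SNHG25 and TMEM107. Entries that overlap each other were merged into 54 positions, of which 15 hosts held 1 each. SNHG1 held the most in this annotation, 7. The canonical transcripts had 2 to 12 exons with a median of 4. In 58 entries read from the GRCh38 sequence, 18 had the letters ACA 3 bases from the 3′ end, 18 had both TGATGA near the 5′ end and CTGA near the 3′ end, and 22 had neither in these exact letters.

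The snoRNAs of SNHG9, SNHG10 and DANCR are shown as examples. SNHG10 had the largest tested fall and DANCR the smallest adjusted p among the hosts tested. All of these snoRNAs end in a box ACA, which is in capitals. SNHG12, which also fell, is not shown and carries SNORD99 beside SNORA61, SNORA44 and SNORA16A. The examples are thus no comparison of box types between hosts that fell and rose. Falls were not limited to hosts of box ACA RNAs, as the host SNHG19, called lower, carries SNORD60, a box C/D RNA. The host SNHG25, also called lower, carries both kinds, SNORD104 with boxes C and D and SNORA50C with a box ACA. SCARNA13 is a small Cajal body RNA, a guide class that acts on spliceosomal RNA.

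SNORA78 (in SNHG9, GRCh38 chr16:1965184-1965310, + strand, 127 bases): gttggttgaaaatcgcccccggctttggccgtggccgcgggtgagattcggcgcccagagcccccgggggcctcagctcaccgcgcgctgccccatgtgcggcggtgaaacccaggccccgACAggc
SCARNA13 (in SNHG10, GRCh38 chr14:95533355-95533629, - strand, 275 bases): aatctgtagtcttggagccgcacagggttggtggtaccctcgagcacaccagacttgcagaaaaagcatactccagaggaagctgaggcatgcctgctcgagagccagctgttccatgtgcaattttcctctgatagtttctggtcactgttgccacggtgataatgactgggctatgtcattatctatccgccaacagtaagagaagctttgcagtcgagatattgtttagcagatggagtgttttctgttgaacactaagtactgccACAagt
SNORA26 (in DANCR, GRCh38 chr4:52713249-52713370, + strand, 122 bases): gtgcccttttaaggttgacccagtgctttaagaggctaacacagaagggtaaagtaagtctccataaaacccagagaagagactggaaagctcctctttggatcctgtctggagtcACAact

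The only host that rose, ZFAS1, carries 3 box C/D RNAs of one family. Box C (TGATGA) and box D (CTGA) are in capitals.

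SNORD12C (in ZFAS1, GRCh38 chr20:49278940-49279028, + strand, 89 bases): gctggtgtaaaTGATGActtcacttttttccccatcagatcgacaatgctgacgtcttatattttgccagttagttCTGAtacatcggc
SNORD12B (in ZFAS1, GRCh38 chr20:49280319-49280409, + strand, 91 bases): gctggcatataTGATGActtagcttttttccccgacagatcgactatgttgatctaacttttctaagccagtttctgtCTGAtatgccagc
SNORD12 (in ZFAS1, GRCh38 chr20:49280683-49280772, + strand, 90 bases): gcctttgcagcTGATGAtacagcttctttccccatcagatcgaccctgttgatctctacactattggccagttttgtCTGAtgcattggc

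The spliced host, and not these small RNAs, was what poly(A) selection could count. Of the 59 entries 11 had a row in the count table and 2 passed the filter. SNORD104, in an intron of SNHG25, had 17, 21 and 23 counts in NC and 16, 11 and 10 in RBM47-OE (log2 fold change -0.79 ± 0.39 SE, edgeR adjusted p = 0.118). SNORA73B, in SNHG3, had 6, 10 and 10 counts in NC and 11, 6 and 10 in RBM47-OE. The other 9 had 0 to 9 counts in each library, so mature snoRNA levels are not given.

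The RefSeq start regions held 25 of the 29 hosts. On the gene's own strand 6 of the 25 (24.0%) began with C followed by at least 4 letters that were each C or T, against 4.07% of all 35116 promoters in the table. The 6 were ZFAS1, SNHG12, SNHG19, SNHG4, SNHG5 and SNHG32. Of these 1 rose, 2 fell and 3 did not pass the test, so hosts with this start were found in each class. A longer run of this kind, C followed by at least 5 such letters anywhere from 20 bases before to 25 bases after the start, was found in 14 of 25 hosts (56.0%) and in 33.3% of all promoters. RefSeq starts need not be the GENCODE starts used for neighbouring genes below. For GAS5 the bases around the RefSeq start, chr1:173869016-173869075, did not include its GENCODE canonical start at chr1:173867989. GAS5 was counted without either run, which holds for the RefSeq start only. For 4 of the hosts, 30 bases before and 30 from the start site on are shown with the run in capitals, to set the riser ZFAS1 beside 2 hosts that fell and 1 that was not called.

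ZFAS1 (GRCh38.p14 chr20:49278612-49278671, + strand): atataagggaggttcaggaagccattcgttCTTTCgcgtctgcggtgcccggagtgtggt
SNHG12 (GRCh38.p14 chr1:28581844-28581903, - strand): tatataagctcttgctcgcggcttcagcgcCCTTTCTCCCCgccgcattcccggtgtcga
SNHG19 (GRCh38.p14 chr16:2155329-2155388, - strand): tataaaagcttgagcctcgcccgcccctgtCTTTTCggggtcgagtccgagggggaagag
SNHG4 (GRCh38.p14 chr5:139274071-139274130, + strand): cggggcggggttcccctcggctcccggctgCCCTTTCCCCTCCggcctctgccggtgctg

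Levels differed widely between hosts. On the FPKM scale, which divides by gene length, SNHG29 was highest, followed by SNHG6, SNHG19, GAS5 and SNHG16. SNHG29, which carries SNORD49A, SNORD49B and SNORD65, stood at 108, 109 and 106 FPKM in NC and at 108, 99.0 and 96.1 FPKM in RBM47-OE. SNHG6 stood at 77.9, 73.2 and 71.1 FPKM in NC and at 74.0, 65.9 and 75.5 FPKM in RBM47-OE, so the groups overlapped. SNHG19, a short host of SNORD60, was at 47.2, 60.7 and 57.5 FPKM in NC and 46.2, 51.9 and 45.5 FPKM in RBM47-OE. The ranges of these 3 hosts over the 6 libraries did not touch each other.

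GAS5, named for its accumulation in growth-arrested cells, was at 35.3, 34.3 and 32.9 FPKM in NC and at 34.6, 35.47 and 32.2 FPKM in RBM47-OE. SNHG16, the host of SNORD1A, SNORD1B and SNORD1C, was at 27.6, 26.0 and 25.9 FPKM in NC and at 26.0, 27.0 and 25.4 FPKM in RBM47-OE. GAS5 and SNHG16 kept apart from each other, but the range of SNHG1, 19.8 to 36.0 FPKM, covered both of them and ZFAS1 (20.4 to 27.1 FPKM). At the low end SNHG22 was at 0.07 to 0.17 FPKM and SNHG5 at 0.20 to 0.24 FPKM.

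This order depends on the transcript model. The length behind the deposited FPKM was back-calculated from counts and FPKM. It was then divided by 1.13, its median ratio to the union of all annotated exons over 10402 genes. The scaled length came within 20% of that union for 26 of the 29 hosts, a count that depends on the scaling. The exceptions were SNHG6 (1247 bases against a union of 2527), SNHG19 (342 against 614) and SNHG26 (5968 against 7475). A shorter length gives a higher FPKM, so the high places of SNHG6 and SNHG19 depend in part on it. For SNHG29 the union of exons is 8947 bases against 443 bases of its canonical transcript. Per kilobase of canonical transcript, the mean was 1914 CPM (counts scaled to the size of the library, here its raw total) for SNHG29. It was 321 for SNHG16, 244 for GAS5, 100.05 for SNHG1 and 56.5 for SNHG6, which puts SNHG16 and GAS5 above SNHG6.

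**Figure D1:**
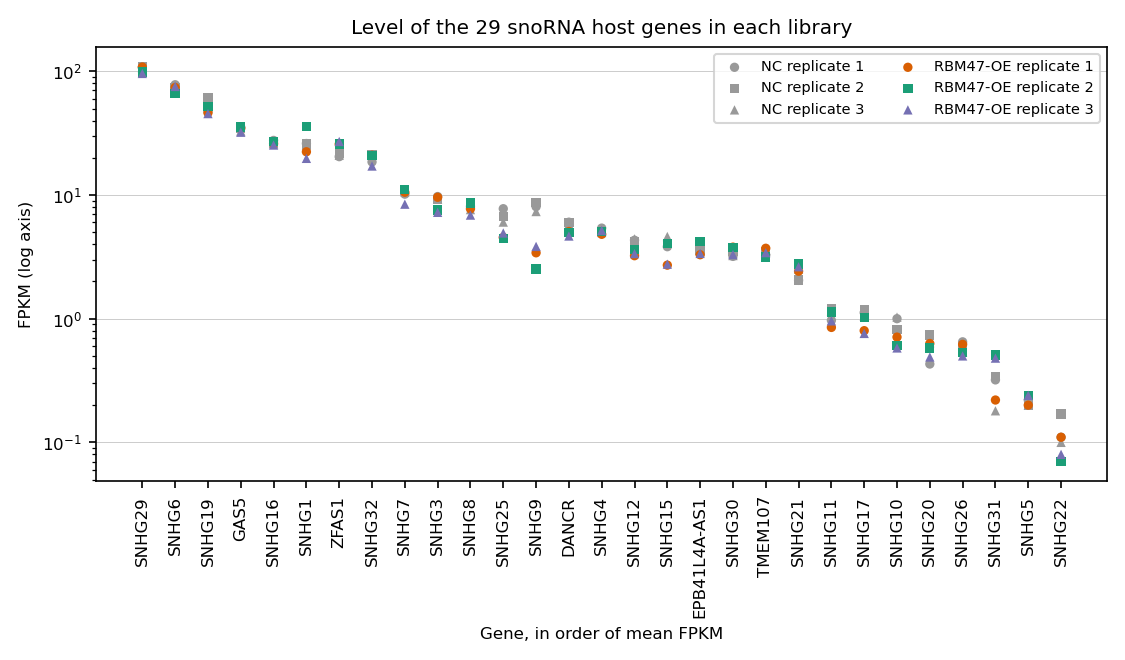
FPKM (log axis) of the 29 snoRNA host genes in order of mean level, with 1 point for each of the 3 NC (grey) and 3 RBM47-OE (coloured) libraries. Levels run from 104 FPKM on average for SNHG29 to 0.107 FPKM for SNHG22, and the RBM47-OE points of SNHG9 stand below its NC points.

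After RBM47-OE most hosts were lower and few passed the test. Leaving out SNHG9, 8 of the other 28 fell at an edgeR adjusted p under 0.05 (28.6%) and 1 rose, against 16.9% of all genes tested that fell and 19.1% that rose. The 8 were SNHG10, SNHG25, SNHG15, SNHG17, SNHG12, DANCR, SNHG19 and SNHG3, and the 1 was ZFAS1. Of the 28, 23 had a log2 fold change below 0 (82.1%, against 49.99% of all genes), with a median of -0.13 against 0.00 over all genes. At an unadjusted edgeR p under 0.01 and a fold change over 1.5, SNHG10 alone of the 28 was lower and none higher (0.873% and 1.51% of all genes). These are the thresholds of the study's methods, which applied them to DESeq2. The calls here are thus not the study's own. No test of the list was made. Without NC replicate 2, or without RBM47-OE replicate 3, 5 of the 28 fell instead of 8.

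The 3 RBM47-OE libraries lay wholly below the 3 NC libraries in 9 of the 28 hosts and wholly above them in ZFAS1, where 23.4% and 23.2% of all genes tested did so. RBM47-OE replicate 3 stood furthest out, with the median of all 29 hosts at -0.31 on the log2 scale against the NC mean and 25 hosts below it. In replicates 1 and 2 that median was -0.09 and -0.12, with 22 and 21 hosts below the NC mean. Over all genes the same medians were within 0.02 of 0.

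**Figure D2:**
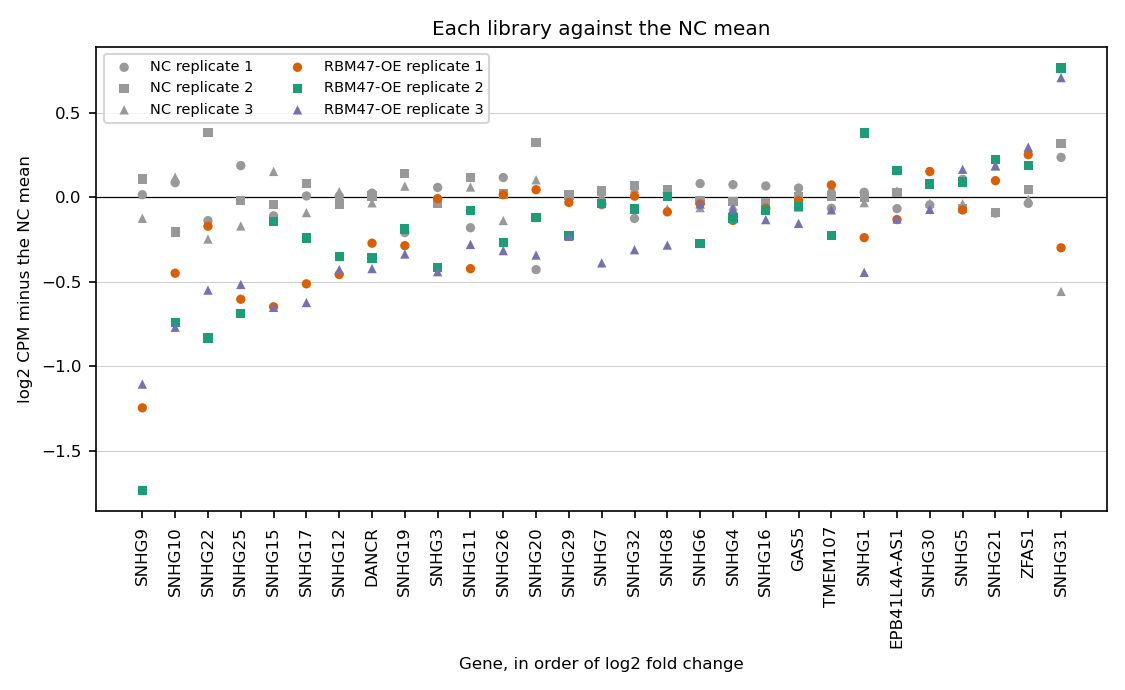
log2 CPM of each library minus the NC mean (y axis) for the 29 hosts in order of log2 fold change (x axis), NC in grey and RBM47-OE in colour. SNHG9 stands apart at the left, ZFAS1 has all 3 RBM47-OE points above its NC points, and SNHG1 has RBM47-OE replicate 2 above and the other 2 below.

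SNHG9 (ENSG00000255198.4, GRCh38 chr16:1964895-1965509, + strand), a short gene with 2 exons in its canonical transcript and SNORA78 in its intron, had the lowest log2 fold change of all hosts. Its counts were 136, 191 and 135 in NC and 70, 48 and 68 in RBM47-OE. Scaled by TMM library size this was 5.18, 5.52 and 4.69 CPM in NC and 2.12, 1.49 and 2.34 CPM in RBM47-OE, so every RBM47-OE library was less than every NC library. The mean went from 5.13 ± 0.42 to 1.99 ± 0.44 CPM (SD, n = 3 each), a ratio of 0.387 and a log2 fold change of -1.37 ± 0.19 (SE). These values rest on 48 to 191 counts per library. Over the 15 refits, each with 1 choice of processing changed or 1 library left out except for the GC offset with the replicate block, it ranged from -1.50 to -1.09. As SNHG9 was picked for this fall, none of these values is a test of it.

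DANCR (ENSG00000226950.8, chr4:52712325-52723623, + strand), a lncRNA known for holding progenitor cells undifferentiated, had the smallest adjusted p among the hosts tested. It stood at 71.5, 70.7 and 68.8 CPM in NC and at 58.2, 54.8 and 52.5 CPM in RBM47-OE. The groups were clear of each other and the log2 fold change was -0.35 ± 0.07 (SE; edgeR adjusted p = 0.00073). SNHG12, with SNORD99, SNORA61, SNORA44 and SNORA16A, stood between 20.8 and 21.9 CPM in NC and between 15.5 and 16.8 CPM in RBM47-OE, a log2 fold change of -0.41 ± 0.09 (SE; edgeR adjusted p = 0.0016). The gene body of DANCR overlaps LINC01618 on the same strand and ERVMER34-1 on the other, and that of SNHG12 overlaps TRNAU1AP on the other strand. Reads from shared stretches could thus belong to another gene.

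SNHG10 (ENSG00000247092.7, chr14:95521943-95534889, - strand), the host of SCARNA13, had the largest fall among the hosts tested. Its values were 6.36, 5.18 and 6.50 CPM in NC and 4.36, 3.55 and 3.48 CPM in RBM47-OE, with no overlap. The log2 fold change was -0.65 ± 0.16 (SE; edgeR adjusted p = 0.0023). DANCR, SNHG12 and SNHG10 passed an adjusted p under 0.05 in all 15 refits. Of the 3 only SNHG10 passed the thresholds of the study as applied to the edgeR fit. The gene body of SNHG10 overlaps GLRX5 on the other strand, and whether the authors' counting used strand is not given in the sources used here.

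SNHG25 (ENSG00000266402.3, chr17:64145937-64146476, + strand) carries SNORD104 and SNORA50C in a gene of 340 exonic bases. It stood at 2.51, 2.17 and 1.95 CPM in NC and at 1.42, 1.34 and 1.52 CPM in RBM47-OE, again with no overlap. Its log2 fold change was -0.63 ± 0.23 (SE; edgeR adjusted p = 0.036), a call lost in 9 of 15 refits, 5 of them by leaving out 1 library (all but NC replicate 3).

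SNHG15 (ENSG00000232956.9, chr7:44983019-44986961, - strand), with SNORA9, stood at 17.5, 18.4 and 21.1 CPM in NC and at 12.1, 17.1 and 12.0 CPM in RBM47-OE. RBM47-OE replicate 2 lay close under the NC libraries and the other 2 well below them. The log2 fold change was -0.47 ± 0.12 (SE; edgeR adjusted p = 0.0042). SNHG17 (ENSG00000196756.13, chr20:38419638-38435409, - strand) holds 5 copies of the SNORA71 family and stood at 15.4, 16.2 and 14.4 CPM in NC and at 10.7, 12.95 and 9.93 CPM in RBM47-OE. The groups did not overlap and the log2 fold change was -0.45 ± 0.11 (SE; edgeR adjusted p = 0.0032). SNORA71 copies are near-identical in several places, and how the authors assigned reads from such stretches beyond unique mapping is not given, so counts that fell on them are uncertain.

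SNHG19 and SNHG3 fell with groups that overlapped. SNHG19 had 18.8, 24.0 and 22.8 CPM in NC and 17.8, 19.1 and 17.2 CPM in RBM47-OE (log2 fold change -0.28 ± 0.10 SE, edgeR adjusted p = 0.034), and it lost the call without NC replicate 2, NC replicate 3 or RBM47-OE replicate 3 (adjusted p 0.222, 0.131 and 0.0933). SNHG3, with SNORA73A and SNORA73B, had 46.4, 43.5 and 43.8 CPM in NC and 44.3, 33.3 and 32.8 CPM in RBM47-OE (log2 fold change -0.27 ± 0.10 SE, edgeR adjusted p = 0.027), so replicate 1 of RBM47-OE lay inside the NC range. It lost the call without any 1 library other than RBM47-OE replicate 1, at edgeR adjusted p of 0.0626 to 0.160. The gene body of SNHG3 overlaps RCC1 on the same strand, so reads from shared stretches could belong to either gene.

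ZFAS1 (ENSG00000177410.13, chr20:49278178-49299600, + strand), a lncRNA antisense to ZNFX1 and the host of the 3 SNORD12 RNAs shown above, was the only host that rose. It had 198, 210 and 202 CPM in NC and 242, 232 and 249 CPM in RBM47-OE. All RBM47-OE libraries were above all NC libraries, with a log2 fold change of 0.25 ± 0.07 (SE; edgeR adjusted p = 0.0067). Without NC replicate 1 the log2 fold change was 0.23 and the edgeR adjusted p was 0.0593. SNHG31, SNHG21, SNHG5 and SNHG30 also had log2 fold changes above 0, from 0.06 to 0.43, and did not pass the test.

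GAS5 (ENSG00000234741.8, chr1:173858559-173868882, - strand) stood at 199, 192 and 184 CPM in NC and at 189, 185 and 173 CPM in RBM47-OE. The groups overlapped, and its log2 fold change of -0.08 ± 0.07 (SE) did not pass the test (edgeR adjusted p = 0.433). TMEM107 (ENSG00000179029.15, chr17:8172457-8176399, - strand), which encodes a protein of the ciliary transition zone and holds SNORD118, the U8 RNA needed for processing of the large-subunit rRNA, was at 15.03, 15.8 and 16.4 CPM in NC and at 16.5, 13.4 and 14.9 CPM in RBM47-OE. EPB41L4A-AS1 (ENSG00000224032.7, chr5:112160526-112164818, + strand), the host of SNORA13, was at 15.2, 16.2 and 16.3 CPM in NC and at 14.5, 17.8 and 14.6 CPM in RBM47-OE. Neither passed the test (log2 fold changes -0.07 ± 0.11 and -0.03 ± 0.11, SE; edgeR adjusted p = 0.632 and 0.868).

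Among the most abundant hosts, SNHG29 had 901, 905 and 884 CPM in NC and 878, 766 and 764 CPM in RBM47-OE. The groups did not overlap, RBM47-OE replicate 1 lay just under the lowest NC library, and the log2 fold change of -0.16 ± 0.07 (SE) did not pass the test (edgeR adjusted p = 0.0981). SNHG6 (113, 106 and 103 CPM in NC; 104, 88.6 and 104 CPM in RBM47-OE) and SNHG16 (173, 162 and 161 CPM in NC; 158, 156 and 151 CPM in RBM47-OE) had log2 fold changes of -0.11 and -0.09 and did not pass either. The other uncalled hosts, SNHG22, SNHG11, SNHG26, SNHG20, SNHG7, SNHG32, SNHG8 and SNHG4, had log2 fold changes from -0.64 to -0.11. SNHG22 had the largest of these on 6 to 18 counts per library, where a change of this size was not detectable.

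SNHG1, which carries 7 snoRNA entries, differed mostly between its own RBM47-OE libraries. It stood at 121, 118 and 116 CPM in NC and at 100.3, 154 and 87.0 CPM in RBM47-OE. RBM47-OE replicate 2 was above all NC libraries and the other 2 were below all of them. The range within RBM47-OE was 0.83 on the log2 CPM scale, larger than in 99.7% of the 1495 genes within 0.5 log2 CPM of SNHG1, whereas its range in NC was 0.06. The log2 fold change was -0.06 ± 0.12 (SE; edgeR adjusted p = 0.756), and without RBM47-OE replicate 2 it was -0.34 (edgeR adjusted p = 0.0054). SNHG1 was singled out after its values were seen, and the source of the spread was not tested. In bulk RNA, fewer cells that express a gene and less of its RNA per cell cannot be told apart, here or for any host above.

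Fold changes over all genes moved with the GC content of their exons. The median log2 fold change went from 0.38 in the tenth of genes with the lowest GC content (37.4% at the median) to -0.23 in the tenth with the highest (64.0%). Hosts with more GC tended to have lower fold changes too. Across the 29 hosts, which share libraries, Spearman's rho between GC content and log2 fold change was -0.70, and it was -0.67 without SNHG9, whose exons had the highest GC content of all hosts, 66.3%. Leaving out SNHG9, the 8 hosts called lower had a median GC content of 50.7%, and the 19 not called one of 43.9%.

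When the trend with GC content was taken out of every library by an offset, 11 of the 28 hosts fell and ZFAS1 alone rose, while 8.57% of all genes fell and 5.97% rose. The median of the 28 became -0.24, 24 of the 28 lay below 0, and rho over the 29 hosts became -0.08. SNHG25 (log2 fold change -0.42, edgeR adjusted p = 0.241) and SNHG19 (-0.14, 0.348) no longer passed. SNHG8, SNHG6, SNHG4, SNHG16 and GAS5, all with 38.8% to 45.0% GC in their exons, now passed as lower, with log2 fold changes of -0.42, -0.42, -0.28, -0.20 and -0.29 (edgeR adjusted p from 0.00089 to 0.020). SNHG9 stood at -1.16, SNHG10 at -0.73, DANCR at -0.41 and ZFAS1 at 0.22 with the offset. The direction of the list was thus the same with and without the offset, but which hosts passed was in part not.

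**Figure D3:**
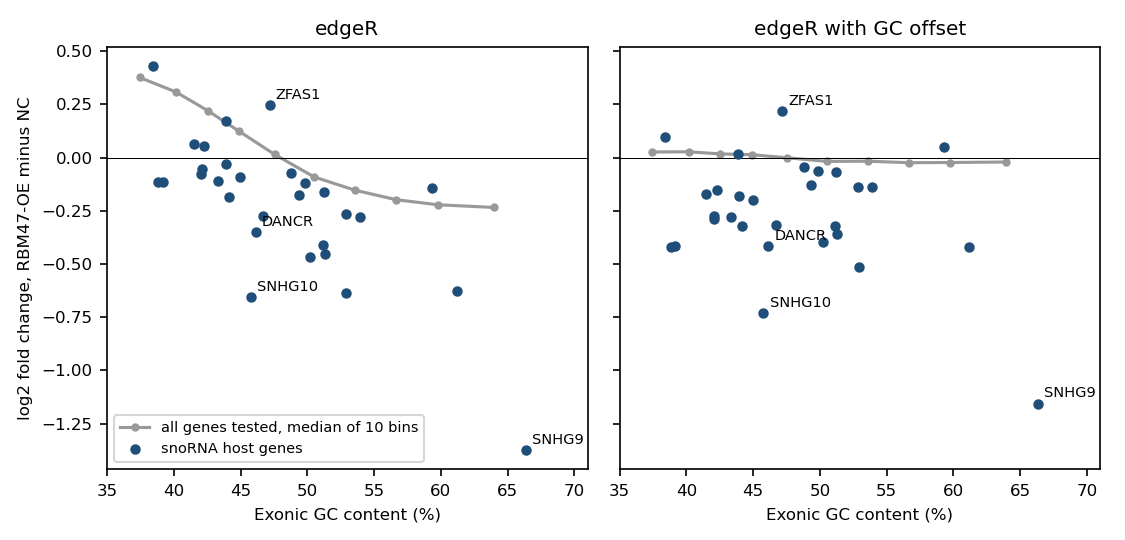
log2 fold change (RBM47-OE minus NC) of the 29 hosts (blue points) against the GC content of their exons, without (left) and with (right) the GC offset, beside the median of all genes tested in 10 bins of GC content (grey line). On the left the grey line falls from 0.38 to -0.23 and most hosts lie beneath it. On the right it is near 0 and 25 of the 29 hosts lie below 0, with ZFAS1 above.

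**Figure D4:**
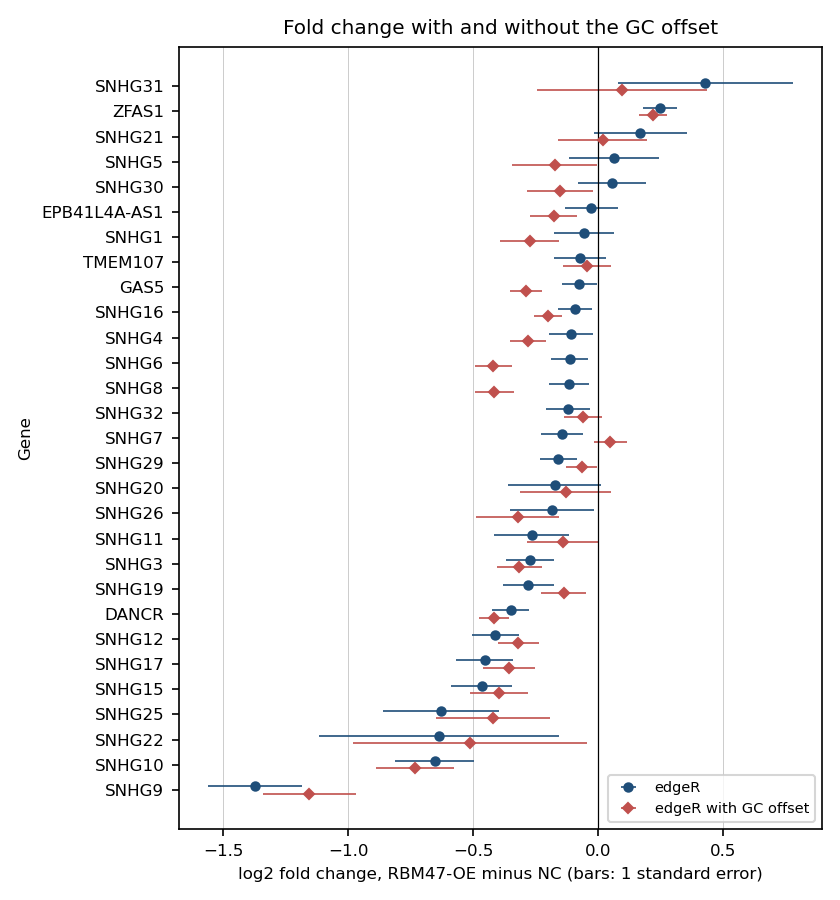
log2 fold change of each host (RBM47-OE minus NC, x axis) by edgeR (circles) and by edgeR with the GC offset (diamonds), with bars of 1 standard error. SNHG9 is at -1.37 and -1.16, SNHG6 and SNHG8 move from -0.11 and -0.12 to -0.42, and ZFAS1 is at 0.25 and 0.22.

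Other hosts of snoRNAs were compared by the same fit. Among 234 protein-coding genes with a snoRNA inside them, 67 rose (28.6%) and 48 fell (20.5%), against 19.1% and 16.9% of all genes, with a median log2 fold change of 0.06. The balance turned with the GC offset, to 14 higher (5.98%) and 35 lower (14.96%), against 5.97% and 8.57% of all genes. Of the 234, 28 were ribosomal protein genes, which like many snoRNA hosts start with a pyrimidine run, and 0 of them rose and 10 fell, with 25 below 0 and a median of -0.14. The other 206 had 67 higher and 38 lower and a median of 0.13. With the GC offset the ribosomal protein hosts kept a median of -0.14 and 8 fell, whereas the other protein-coding hosts had 14 higher, 27 lower and a median of -0.02. The 2243 other lncRNA genes tested had 75 higher, 120 lower and a median of -0.02, but they were far less abundant (median 0.522 FPKM against 4.47 FPKM for the 28 snoRNA hosts), so fewer of them could pass. These are values side by side, with no test of the difference between sets.

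For 7 hosts a protein-coding gene starts on the opposite strand within 1000 bases of the host's own start. RPS2, a protein of the small ribosomal subunit, starts 69 bases from SNHG9. It stood at 6531, 6657 and 6378 CPM in NC and at 5475, 4741 and 4932 CPM in RBM47-OE, a log2 fold change of -0.37 (edgeR adjusted p = 0.0011; with the GC offset -0.18 and 0.0863) beside -1.37 for SNHG9. The pair thus had the same sign and differed in size. GLRX5, a mitochondrial glutaredoxin beside SNHG10, and TRAF7, a ubiquitin ligase beside SNHG19, had log2 fold changes of -0.28 and -0.23 (edgeR adjusted p = 0.0051 and 0.015). GLRX5 with the GC offset had -0.23 (edgeR adjusted p = 0.012) and TRAF7 -0.02 (0.859).

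ZNFX1, a helicase of antiviral defence that starts 585 bases from ZFAS1, went the other way. It had 89.3, 90.1 and 91.7 CPM in NC and 65.0, 67.8 and 67.5 CPM in RBM47-OE, a log2 fold change of -0.44 (edgeR adjusted p = 7.8e-05; with the GC offset -0.33 and 0.00059) against 0.25 for ZFAS1. Their gene bodies overlap on opposite strands, so reads from the shared stretch could have been counted for either if strand was not used. BARD1, the partner of BRCA1, starts near SNHG31 and rose by 0.58 on the log2 scale (edgeR adjusted p = 0.00016; with the GC offset 0.24 and 0.043). ZBTB37 beside GAS5 and ACAA2 beside SNHG22 had log2 fold changes of 0.25 and 0.11 and did not pass the test. In all, the gene bodies of 20 of the 29 hosts, introns included, overlap another annotated protein-coding or lncRNA gene. Overlap of exons alone was not examined.

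Of 25 factors that bind, assemble or mature snoRNAs, 7 fell (28.0%) and 6 rose (24.0%), against 16.9% and 19.1% of all genes, with a median log2 fold change of -0.08. Under the GC offset 11 fell and 0 rose, against 8.57% and 5.97% of all genes, so no rise among the 25 passed with it. In the box C/D core, the methyltransferase FBL (-0.37), NOP56 (-0.37) and SNU13 (-0.33) fell and NOP58 had 0.17 (edgeR adjusted p = 0.147). FBL stood at 436, 440 and 432 CPM in NC and at 373, 314 and 322 CPM in RBM47-OE. In the box H/ACA core NHP2 fell (-0.39), and the pseudouridine synthase DKC1, NOP10 and GAR1 had -0.13, -0.15 and -0.17 with edgeR adjusted p of 0.11 to 0.173. With the GC offset all 4 of the H/ACA core and the same 3 of the C/D core were lower.

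Of the assembly factors, the ATPase RUVBL2 (-0.41) and its partner RUVBL1 (-0.31) fell, and RPAP3, a subunit of the R2TP complex in which they act, rose (0.43; with the GC offset 0.05, edgeR adjusted p = 0.722). Maturation and transport factors leaned the other way, with 5 of 8 higher, among them PHAX (0.45) and TGS1 (0.34), which export and cap small RNAs, and PARN (0.32), which trims their 3′ ends, and 1 lower, the 3′ exonuclease TOE1 (-0.29). With the GC offset 0 of these 8 passed in either direction, at edgeR adjusted p of 0.0525 and above. Of 15 factors of nonsense-mediated decay, 4 fell (26.7%) and 3 rose (20%, about the share of all genes, 19.1%; 16.9% of all genes fell). The helicase DHX34 (-0.58), the adaptor SMG5 (-0.34), the helicase UPF1 (-0.29) and CASC3 of the exon junction complex (-0.20) fell. The 5′ exonuclease XRN1 (0.61), UPF2 (0.31) and the kinase SMG1 (0.22) rose. With the GC offset 5 fell (33.3%, against 8.57% of all genes). XRN1 alone rose, by 0.26 on the log2 scale (6.67%, about the share of all genes, 5.97%). The 5 were in part other genes, EIF4A3, SMG8 and MAGOH beside DHX34 and CASC3. SMG5 (-0.16, edgeR adjusted p = 0.112) and UPF1 (-0.10, 0.244) no longer passed.

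**Figure D5:**
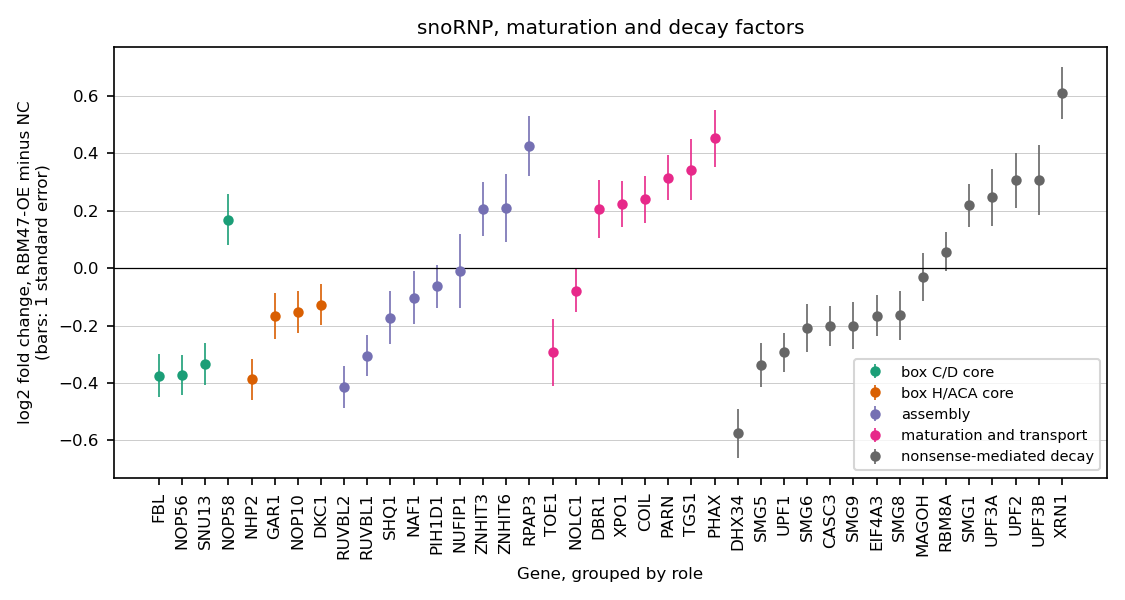
log2 fold change (RBM47-OE minus NC, edgeR, bars of 1 standard error) of 25 snoRNP and maturation factors and 15 factors of nonsense-mediated decay, grouped by role. The C/D and H/ACA core proteins lie below 0 except NOP58 at 0.17, the maturation and transport factors lie mostly above 0, and the decay factors run from -0.58 (DHX34) to 0.61 (XRN1).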

How the data were processed

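Poly(A) RNA-seq of 3 NC and 3 RBM47-OE libraries of HCT116 cells was used. The authors trimmed reads with FASTX-Toolkit, mapped them with HISAT2 to the GRCh38 build and kept reads with a unique position for counting per gene, and the deposited counts were not normalized. The FPKM values deposited by the authors divide the reads by gene length and mapped fragments. The counting tool, its strand setting and the annotation release are not given in the sources used here.

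Genes with enough counts (filterByExpr, minimum count 10, minimum total 15) were tested with the quasi-likelihood test of edgeR 4.0.16 in R 4.3.3, with TMM factors and Benjamini-Hochberg adjustment over all 16260 genes. A gene was called at an adjusted p under 0.05. Standard errors were back-calculated from each gene's F statistic. CPM used TMM library sizes, except per kilobase of canonical transcript, where raw library totals were used. For log2 CPM the prior count was 2. Scripts were tested on simulated data.

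Gene positions, exonic GC content and snoRNA entries came from GENCODE release 44, and start regions from RefSeq (GRCh38.p14), which matched 25 of 29 hosts. The GC offset was a loess curve (span 0.3) per library. The alternatives were DESeq2 1.42.0, RLE factors, library totals, no filter, the replicate number as a block, the GC offset with and without it, limma 3.58.1 on log2(FPKM + 1) and log2(FPKM + 0.1) at a mean FPKM of at least 0.1, the thresholds of the study and leaving out each library.

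The hosts and factor lists were chosen with earlier results of these data known. Values in every library were given for SNHG9, the other hosts named in the rule, the 5 hosts with the highest mean FPKM and up to 4 hosts with the largest change in each direction at an adjusted p under 0.05; SNHG12, SNHG1, SNHG3 and SNHG19 and the low-count hosts were described beyond that after their values were seen. A gene of the decay list is not reported here and was left out of its counts. Factors were named up to 4 in each direction by size of change, and the remaining members of the core complexes were named for completeness.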

Additional observations from a re-analysis of the deposited data

How the results depend on the processing

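Of the 9 hosts called other than SNHG9, SNHG10, SNHG12 and DANCR passed an adjusted p under 0.05 in all 15 refits, and none of the 9 changed sign. At the thresholds of the study, applied to the edgeR fit, SNHG10 alone of them passed. Without SNHG9, the 8 lower hosts became 5 with library totals, 4 with limma on either FPKM scale, 1 at the thresholds of the study and 5 to 8 when each library was left out (5 without NC replicate 2 or RBM47-OE replicate 3). DESeq2 gave 7 and the GC offset 11. The 1 higher host became 0 at the thresholds of the study and was 0 to 1 when each library was left out (0 without NC replicate 1). The median log2 fold change of -0.13 became -0.24 with the GC offset, -0.24 with the GC offset and replicate block, and -0.046 with limma on log2(FPKM + 1). Same-numbered libraries did not deviate together (correlations -0.06, -0.01 and -0.02). No sign of pairing by number was thus seen, but 3 libraries per group cannot exclude it. With the replicate block 8 hosts were lower and 1 higher, with a median of -0.14.

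The 16 changes of sign fell on 7 uncalled hosts with log2 fold changes near 0. With the GC offset and with the GC offset and replicate block, SNHG7 had 0.049 and 0.045, SNHG30 -0.15 and -0.16, and SNHG5 -0.17 and -0.17. With library totals SNHG1 had 0.013 and EPB41L4A-AS1 0.037, and EPB41L4A-AS1 had 0.032 and 0.038 with limma. Leaving out each library gave -0.34 to 0.10 for SNHG1 (0.034 without RBM47-OE replicate 1, 0.10 without replicate 3), -0.13 to 0.030 for EPB41L4A-AS1 (0.030 without RBM47-OE replicate 1, 0.019 without replicate 3), -0.35 to 0.0054 for SNHG20 (without NC replicate 2) and -0.14 to 0.0012 for TMEM107 (without RBM47-OE replicate 2). The cause was not tested. Counts of 6 to 18 per library limit SNHG22.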
